A study of Mus musculus with 18 samples.

Results

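Amino acid transporters of the plasma membrane and cytosolic tRNA synthetases were followed through Esrrb knockdown in E14 mouse embryonic stem cells. The members were chosen by name: every probe whose target name belongs to the SLC1, SLC3, SLC7, SLC38 or SLC43 families, or is a cytosolic tRNA synthetase. These names held 94 probes under 50 target names, 32 for transporters and 18 for synthetases. A name was kept when a probe of it was detected throughout some group of 3 arrays, and 37 genes remained, 20 transporters and 17 synthetases, of 14529 genes tested in all. The other 13 names were 12 transporters, among them the cationic transporter Slc7a1 and the glial glutamate transporter Slc1a2, and the name SARS1, an alias of Sars, which is a member. Of the 37 members, 32 were detected on every array and Slc7a9 passed through the day 6 Esrrb shRNA group alone.

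E14 cells, an established line, were grown on gelatin in medium with serum, LIF, 2 mM glutamine and 0.1 mM nonessential amino acids, the same for all groups. They were transfected with a plasmid that expresses a short hairpin RNA (shRNA) targeting either Esrrb or, in control cells, GFP, and total RNA was taken at day 2, 4 or 6. The 6 groups had 3 arrays each, 18 in all, described by the labels as biological replicates without naming separate cultures, so p-values measure the spread between these arrays. A single hairpin label stands on the Esrrb arrays, and its off-target effects and loss of Esrrb cannot be told apart, and the labels do not state whether transfected cells were selected.

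Amino acid transporters set which amino acids enter and leave a cell. The SLC1 family carries glutamate or small neutral amino acids with sodium, the SLC38 family carries glutamine and other neutral amino acids with sodium, and most SLC7 proteins are light chains that reach the membrane with the heavy chain Slc3a2 and exchange amino acids across it. The tRNA synthetases join each amino acid to its tRNA. When an amino acid runs short, uncharged tRNA activates the kinase GCN2, translation of the transcription factor ATF4 rises, and ATF4 raises transporters such as Slc7a11, Slc7a5 and Slc38a2 together with many cytosolic synthetases. ATF4 and C/EBP factors bind a short composite element, the amino acid response element, in such genes. Esrrb itself is an orphan nuclear receptor that helps keep stem cells pluripotent and binds an extended nuclear receptor half-site.

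The core letters of the amino acid response element, TGATGNAA on either strand, were searched in the 250 bases before each RefSeq start (build GRCm38.p6). The RefSeq table held 24 of the 37 members. The letters occurred in 5 of these 24, namely Aars, Gars, Tars, Slc7a7 and Slc7a11, and in 3.91% of all 27025 genes in the table. Slc7a11, the cystine and glutamate exchanger, was the only member with the letters in this window on both strands, at -66 to -59 and, reversed, at -47 to -40 from the start. The extended half-site TNAAGGTCA occurred in 0 of the 24 members and in 1.3% of all genes, which says only that these letters are not in these windows. The promoters of 3 members are shown because they hold the same letters and their transcripts did different things: over days in control cells Aars rose, Slc7a7 fell and Slc7a11 did not pass the test (0.33, adjusted p = 0.101). With the replicate number as a block Slc7a11 did pass (adjusted p = 0.0415), as it did with median centring (0.00961) and without control replicate 1 of day 2 (0.00762). Capitals mark the matches. They are given 5′ to 3′ on the gene's strand, for Aars from chr8:111033592-111033841 (plus strand), for Slc7a7, the more downstream of the 2 windows with a match among its 5 starts, from chr14:54417703-54417952 (minus strand) and for Slc7a11 from chr3:50443614-50443863 (minus strand).
Aars: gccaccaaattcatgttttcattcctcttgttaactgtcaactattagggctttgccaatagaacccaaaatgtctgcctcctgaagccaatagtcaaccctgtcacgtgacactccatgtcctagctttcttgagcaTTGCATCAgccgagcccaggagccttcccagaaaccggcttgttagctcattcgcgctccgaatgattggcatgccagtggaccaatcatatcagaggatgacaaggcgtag
Slc7a7: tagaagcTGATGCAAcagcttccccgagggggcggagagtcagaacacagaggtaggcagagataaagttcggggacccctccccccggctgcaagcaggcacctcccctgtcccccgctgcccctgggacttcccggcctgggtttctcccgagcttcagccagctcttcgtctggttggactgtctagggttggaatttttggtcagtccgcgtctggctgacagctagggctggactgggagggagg
Slc7a11: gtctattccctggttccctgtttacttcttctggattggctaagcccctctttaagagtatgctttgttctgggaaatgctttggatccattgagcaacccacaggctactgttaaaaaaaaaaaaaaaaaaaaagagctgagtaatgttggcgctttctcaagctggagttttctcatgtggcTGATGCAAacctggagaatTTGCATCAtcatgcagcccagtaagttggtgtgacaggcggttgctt

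The knockdown was checked first on its target. Esrrb lay between 13.38 and 14.04 on the log2 intensity scale on the 9 control arrays and between 10.96 and 12.34 on the 9 Esrrb shRNA arrays. Its log2 fold change was -2.23, -2.72 and -1.87 at days 2, 4 and 6. Replicate arrays correlated at 0.9911 to 0.9967, and 37.7% to 42.6% of probes were detected per array. All 7 embryonic stem cell markers were detected in every group, with a summed linear intensity of 16740 to 18820 in control cells and 12860 to 15920 in knockdown cells. Trophectoderm markers (Cdx2, Krt7, Krt8, Krt18, Gata3 and Elf5) moved with the knockdown: their summed intensity was 481 to 559 against 1141 to 1245 at day 2, 648 to 688 against 3370 to 3752 at day 4, and 1507 to 1583 against 9692 to 10010 at day 6, control first. Of 6 such markers 5 were detected on all 3 arrays of each knockdown group, and their part in the differences of the members was not tested. Of 8 fibroblast markers only Thy1 and Pdgfrb were detected throughout. The summed intensity of the list was lower in knockdown cells at days 4 and 6. Control first, it was 298 to 343 against 290 to 323 at day 2 and 361 to 397 against 224 to 261 at day 4. At day 6 it was 284 to 304 against 126 to 153. Of the 3 tested, Dcn was higher at day 2, Thy1 lower at day 4, and Thy1 and Pdgfrb lower at day 6. That is 33.3%, 33.3% and 66.7% called, against 12.1%, 23.4% and 41% of all genes. Primitive endoderm markers summed to 690 to 764 against 775 to 873 at day 2 and 855 to 953 against 1021 to 1097 at day 4, control first. At day 6 the order of the arms was reversed, at 1104 to 1153 against 997 to 1022. These sums do not describe each marker. Of the 5 tested, Dab2 alone was higher in knockdown cells, on each day, while 2, 1 and 3 were lower at days 2, 4 and 6. That is 60%, 40% and 80% called, against 12.1%, 23.4% and 41% of all genes. In bulk RNA, fewer cells that express a gene and less of its RNA per cell cannot be told apart.

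Some transporters passed the test between knockdown and control cells on each day, and some synthetases at days 4 and 6. At day 2, 4 of the 37 members were higher and 2 were lower in Esrrb shRNA cells, and all 6 were transporters. That is 16.2% of members, against 12.1% of all genes, of which 6.6% were higher and 5.55% lower. Of the 17 synthetases, 0 passed the limma test then, and 2 had an unadjusted p under 0.05. At day 4, 2 transporters were higher and 4 transporters and 3 synthetases were lower (24.3% of members, against 23.4% of all genes, 12.3% higher and 11.1% lower). All genes split into 1791 higher and 1607 lower calls at day 4, but into 2430 and 789 with median centring. At day 6, 6 members were higher and 14 were lower (54.1%, against 41% of all genes), of which 8 of the lower and 1 of the higher were synthetases. In all genes the calls were nearly even at day 6, at 19.8% higher and 21.2% lower. The median log2 fold change of the synthetases was -0.04, -0.21 and -0.22 at days 2, 4 and 6, that of the transporters was 0.10, -0.08 and 0.00, and that of all genes was 0.00 on each day. These counts and medians describe the genes that passed the detection filter. The trophectoderm marker sums were higher in knockdown cells on the same 3 days.

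**Figure D1:**
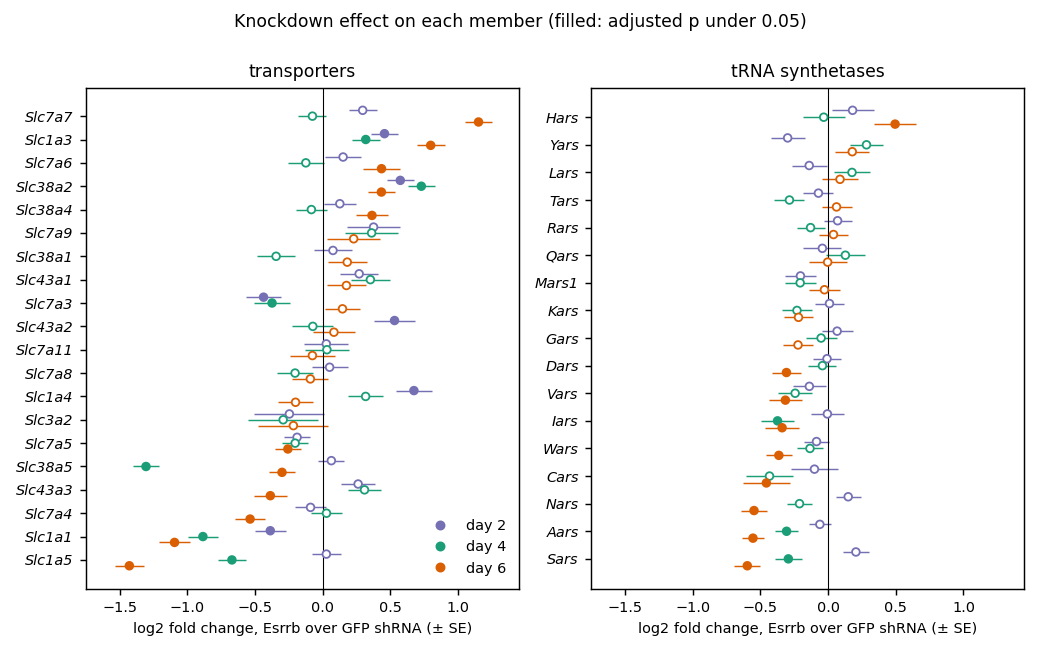
Log2 fold change of each member in Esrrb shRNA over GFP shRNA cells (x axis) at day 2, 4 and 6, transporters on the left and synthetases on the right, ordered by the day 6 value. Points are estimates from 3 arrays per group, bars are 1 standard error, and filled points have an adjusted p under 0.05. Slc1a5 at -1.43 and Slc7a7 at 1.15 stand at the ends of the day 6 order, and no synthetase is filled at day 2.

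Among the SLC1 transporters, Slc1a5 and Slc1a1 were lower in knockdown cells and Slc1a3 was higher, while Slc1a4 was higher only at the first time point by the test. Slc1a5, the exchanger that brings glutamine and other neutral amino acids into the cell, had log2 intensities of 7.80, 7.82 and 7.90 at day 2, 8.40, 8.65 and 8.65 at day 4, and 9.18, 9.26 and 9.41 at day 6 in control cells. In knockdown cells it had 7.86, 7.95 and 7.80 at day 2, 7.71, 7.99 and 7.97 at day 4, and 7.72, 8.01 and 7.84 at day 6. The groups overlapped at day 2 and lay apart at days 4 and 6, with the control arrays climbing and the knockdown arrays staying at their day 2 level. The log2 fold change was 0.03 at day 2 (SE 0.11, adjusted p = 0.913), -0.67 at day 4 (SE 0.11, adjusted p = 7.08e-05) and -1.43 at day 6 (SE 0.11, adjusted p = 1.47e-09), a 2.69-fold lower level. A second Slc1a5 probe was detected on 5 of 18 arrays and on none of the knockdown arrays at day 6, so no fold is given for it.

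Slc1a1 carries glutamate, aspartate and cysteine. Its control arrays read 6.17, 6.26 and 6.23 at day 2, 6.12, 6.26 and 6.23 at day 4, and 6.71, 6.66 and 6.42 at day 6. Its knockdown arrays read 6.08, 5.81 and 5.61, then 5.35, 5.28 and 5.32, then 5.61, 5.33 and 5.56. All knockdown arrays lay below all control arrays of the same day. The log2 fold changes were -0.39 (SE 0.11, adjusted p = 0.0276), -0.89 (SE 0.11, adjusted p = 5.41e-06) and -1.10 (SE 0.11, adjusted p = 1.58e-07) at days 2, 4 and 6. The day 2 call was lost without control replicate 2 (adjusted p = 0.0726) or 3 (0.0593) and without knockdown replicate 2 (0.0775) or 3 (0.153).

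Slc1a3, the glutamate and aspartate transporter best known from glia, was higher in knockdown cells on each day. Its values were 7.16, 7.26 and 7.38 in control and 7.82, 7.69 and 7.66 in knockdown cells at day 2, and 7.79, 7.62 and 7.74 against 8.04, 7.99 and 8.08 at day 4. At day 6 they were 6.89, 6.78 and 6.86 against 7.84, 7.41 and 7.67. The groups did not overlap on any day. The log2 fold changes were 0.46 (SE 0.10, adjusted p = 0.0052), 0.32 (SE 0.10, adjusted p = 0.0303) and 0.80 (SE 0.10, adjusted p = 3.2e-06), and the day 4 call was lost when any array of that day other than control replicate 1 was left out (adjusted p 0.0539 to 0.124). Slc1a4, which carries alanine, serine, cysteine and threonine, read 8.09, 7.80 and 8.29 in control and 8.66, 8.93 and 8.61 in knockdown cells at day 2. It read 9.18, 9.56 and 9.42 against 9.72, 9.68 and 9.71 at day 4, and 10.16, 10.19 and 10.33 against 9.79, 10.19 and 10.10 at day 6. The groups lay apart at days 2 and 4 and overlapped at day 6. Only the day 2 difference passed the test (0.67, SE 0.13, adjusted p = 0.00148), with 0.32 (adjusted p = 0.091) at day 4 and -0.20 (adjusted p = 0.243) at day 6.

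In the SLC38 family the sodium-coupled neutral transporters Slc38a2 and Slc38a5 went opposite ways. Slc38a2, the starvation-inducible system A transporter, had 11.21, 11.18 and 11.03 in control and 11.64, 11.84 and 11.65 in knockdown cells at day 2. Its values were 11.41, 11.34 and 11.22 against 12.13, 12.04 and 11.99 at day 4, and 11.38, 11.45 and 11.42 against 11.68, 12.02 and 11.85 at day 6. Every knockdown array was above every control array of its day. It rose by 0.57 (SE 0.10, adjusted p = 0.000424), 0.73 (SE 0.10, adjusted p = 1.14e-05) and 0.43 (SE 0.10, adjusted p = 0.00137) log2 units.

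Slc38a5, a system N transporter of glutamine, asparagine and histidine, showed its difference mainly at day 4. Its arrays read 7.75, 7.54 and 7.70 in control and 7.74, 7.82 and 7.62 in knockdown cells at day 2, where the groups overlapped. They read 7.68, 7.89 and 7.69 against 6.34, 6.47 and 6.53 at day 4, and 6.77, 6.95 and 6.85 against 6.53, 6.61 and 6.53 at day 6. Both later days showed no overlap, but the gap at day 6 was small, since control cells had come down as well. The log2 fold change was 0.06 at day 2 (adjusted p = 0.738), -1.31 at day 4 (SE 0.10, adjusted p = 2.44e-09) and -0.30 at day 6 (SE 0.10, adjusted p = 0.0153). The day 6 call was lost without control replicate 2 (adjusted p = 0.0771) and with median centring (0.119). Slc38a4 was 0.36 log2 units higher at day 6 (adjusted p = 0.0161), but its second probe gave -0.24 (adjusted p = 0.262), and the call was lost without replicate 2 of either arm (adjusted p 0.0717 and 0.0614). Slc38a1 passed the test on no day, with differences of -0.34 to 0.18.

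Among the SLC7 proteins and their heavy chain, the largest difference was in Slc7a7, the light chain that exports cationic amino acids such as arginine and lysine in exchange for neutral ones. Slc7a7 had 9.76, 9.38 and 9.47 in control and 9.90, 9.73 and 9.87 in knockdown cells at day 2, and 9.58, 9.60 and 9.50 against 9.67, 9.35 and 9.43 at day 4. At day 6 it had 8.25, 8.35 and 8.33 against 9.48, 9.43 and 9.48. The groups overlapped at days 2 and 4 and lay apart at day 6, when both arms were below their day 2 level and the control arrays were further below it. The log2 fold changes were 0.29 (adjusted p = 0.0689, and 0.0444 with the replicate number as a block), -0.08 (adjusted p = 0.661) and 1.15 (SE 0.10, adjusted p = 2.2e-08), the last a 2.22-fold higher level. Slc7a4, a relative of the cationic transporters without an established substrate, read 5.91, 6.28 and 6.26 in control and 6.10, 6.08 and 6.00 in knockdown cells at day 2. It read 6.32, 6.50 and 6.31 against 6.52, 6.26 and 6.43 at day 4, and 7.17, 7.30 and 7.29 against 6.62, 6.62 and 6.90 at day 6. Only the day 6 groups lay apart. The day 6 difference was -0.54 (SE 0.11, adjusted p = 0.000599), with -0.09 and 0.03 on the earlier days, which did not pass the test.

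The other SLC7 members differed less. Slc7a3, a cationic amino acid transporter, was lower at day 2 (-0.44, adjusted p = 0.0319) and day 4 (-0.37, adjusted p = 0.0431). The day 2 call was lost without control replicate 1 or 2 or knockdown replicate 2 or 3 (adjusted p 0.0655 to 0.131). The day 4 call was lost when any array of that day was left out (adjusted p 0.0513 to 0.161). Both calls were lost with median centring (0.119 and 0.122) and without a filter (0.0667 and 0.0892). Slc7a6, a close relative of Slc7a7, was 0.43 higher at day 6 (adjusted p = 0.0137), a call lost without control replicate 2 (0.0686) or knockdown replicate 1 (0.066). Slc7a5, which exchanges glutamine for leucine and other large neutral amino acids, was 0.26 log2 units lower at day 6 (log2 fold change -0.26, adjusted p = 0.0382), and 4 of the 6 single arrays left out ended that call (adjusted p 0.0699 to 0.154). Its heavy chain Slc3a2 ran from -0.29 to -0.22 with a standard error of 0.26 and passed the test on no day. Slc7a11 lay between -0.08 and 0.03 on all 3 days and did not pass the test. Its probe was detected on all 18 arrays but read low, with a mean log2 intensity of 5.69. The other Slc7a11 probes, with means of 4.40 to 4.77, were detected throughout no group. Slc7a8, a light chain for neutral amino acids, and Slc7a9, a light chain for cystine and cationic amino acids, were each detected on only some arrays, and no difference in either passed the test. The Slc7a9 probe was undetected on all 3 control arrays at day 4, so its difference there has only a bound and no fold is given.

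SLC43 proteins carry large neutral amino acids without sodium, except Slc43a3, which carries purine nucleobases. Slc43a2 read 4.66, 5.08 and 4.46 in control and 5.21, 5.51 and 5.07 in knockdown cells at day 2, 5.47, 5.11 and 5.47 against 5.01, 5.38 and 5.44 at day 4, and 5.01, 5.14 and 4.91 against 5.15, 5.02 and 5.12 at day 6. The groups overlapped on all 3 days, and only 1 of the 3 control arrays at day 2 detected the probe. The day 2 difference of 0.53 passed the test (SE 0.15, adjusted p = 0.0256) but not without control replicate 1 (0.0792) or 3 (0.119) or knockdown replicate 2 (0.131). Slc43a3 was lower at day 6 (-0.39, adjusted p = 0.0157), a call that ended without control replicate 2 (adjusted p = 0.051). Slc43a1 did not pass the test on any day, with 0.27, 0.35 and 0.17. With the replicate number as a block, Slc43a1 (adjusted p = 0.0129) and Slc43a3 (0.0326) were called higher at day 4, which made 4 higher members on that day in place of 2. Median centring also called both higher at day 4 (0.0139 and 0.0161). Slc43a1 passed there too with the mean of all probes (0.0374), by its second probe (0.0485) and without control replicate 1 (0.0241). Slc43a3 passed without control replicate 2 (0.0498). The other alternatives called neither at day 4.

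**Figure D2:**
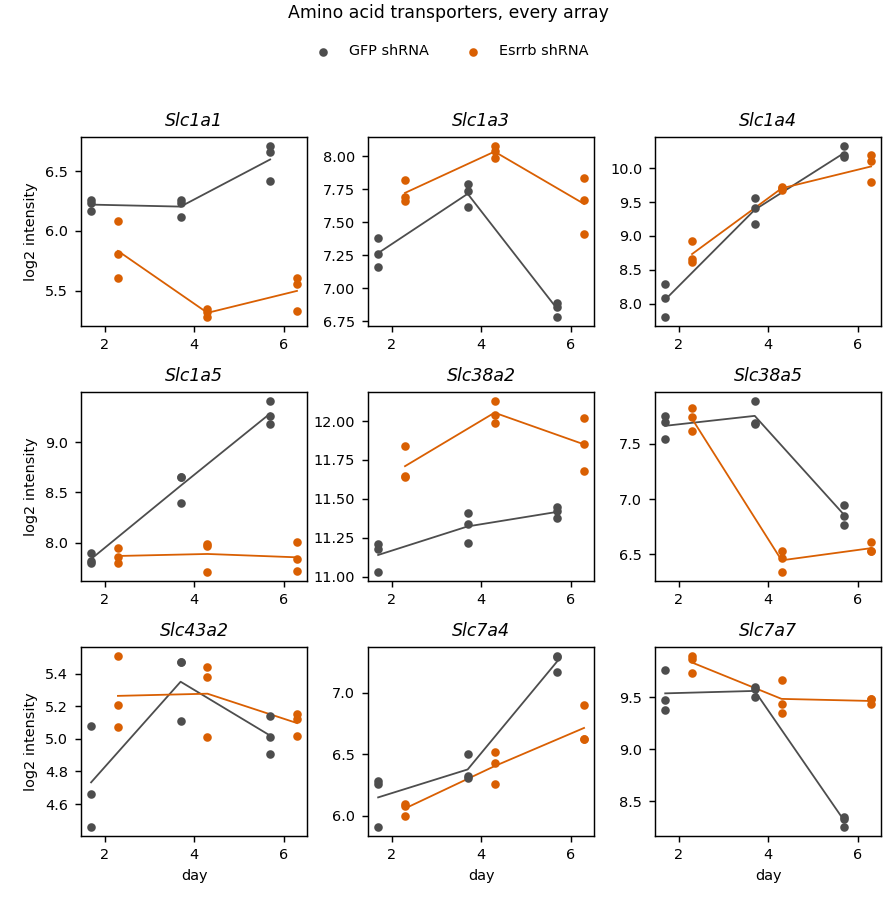
Log2 intensity (y axis, own range per panel) of the 9 transporters given in full at day 2, 4 and 6 (x axis), grey for GFP shRNA and orange for Esrrb shRNA. Each point is 1 array, offset sideways by arm, and lines join the means of 3 arrays. At day 6 the grey points lie between 9.18 and 9.41 in Slc1a5, above the orange ones, and between 8.25 and 8.35 in Slc7a7, below them, while Slc38a5 shows the orange points dropping at day 4.

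Aars, Sars, Nars, Wars, Cars, Dars, Iars and Vars were lower in knockdown cells at day 6 and Hars was higher, 9 of the 17 cytosolic synthetases (52.9%, against 41% of all genes). Aars, Sars and Iars were lower at day 4 (17.6%, against 23.4% of all genes), and median centring ended all 3 of these day 4 calls. The Iars call at day 4 (-0.37, adjusted p = 0.0319) was also lost without a filter, with the mean of both probes (-0.06, adjusted p = 0.742) and without any array of that day other than knockdown replicate 1 (adjusted p 0.0504 to 0.157). Alanyl-tRNA synthetase Aars had 12.04, 12.24 and 12.20 in control and 12.07, 12.09 and 12.14 in knockdown cells at day 2. It had 12.38, 12.48 and 12.41 against 12.18, 12.07 and 12.09 at day 4, and 12.84, 12.89 and 12.84 against 12.37, 12.23 and 12.31 at day 6. The groups overlapped at day 2 and lay apart afterwards. The differences were -0.06 (adjusted p = 0.703), -0.31 (SE 0.08, adjusted p = 0.00961) and -0.56 (SE 0.08, adjusted p = 1.8e-05), and median centring ended the day 4 call (adjusted p = 0.172).

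Seryl-tRNA synthetase Sars read 10.14, 10.27 and 10.20 in control and 10.38, 10.45 and 10.39 in knockdown cells at day 2, with the knockdown arrays on top. At day 4 it read 11.00, 10.99 and 10.95 against 10.68, 10.61 and 10.76, and at day 6 11.00, 11.10 and 10.94 against 10.19, 10.59 and 10.47. The groups lay apart on every day, but in opposite order at day 2 and later. The difference of 0.21 at day 2 did not pass the test (adjusted p = 0.192), those of -0.29 at day 4 (SE 0.10, adjusted p = 0.0328) and -0.60 at day 6 (SE 0.10, adjusted p = 5e-05) did. The day 4 call was lost when any array of that day other than knockdown replicate 3 was left out (adjusted p 0.0644 to 0.12) and with median centring (0.435), and a second probe gave -0.26 at day 4 (0.123) and -0.48 at day 6 (0.00239).

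Asparaginyl-tRNA synthetase Nars had 10.79, 10.84 and 10.80 in control and 10.91, 11.01 and 10.95 in knockdown cells at day 2. Its values were 11.30, 11.35 and 11.28 against 11.08, 11.06 and 11.16 at day 4, and 11.49, 11.60 and 11.55 against 11.16, 10.77 and 11.07 at day 6. As in Sars, the arms lay apart on each day and their order turned after day 2. Only day 6 passed the test, at -0.55 (SE 0.09, adjusted p = 8.2e-05), with 0.15 (adjusted p = 0.349) and -0.21 (adjusted p = 0.112) before. Tryptophanyl-tRNA synthetase Wars read 10.12, 10.24 and 10.24 against 10.18, 10.13 and 10.03 at day 2, 10.02, 10.16 and 10.12 against 10.08, 9.88 and 9.93 at day 4, and 10.28, 10.11 and 10.32 against 9.73, 9.91 and 9.99 at day 6, control first. Only the day 6 arrays did not overlap. The day 6 difference was -0.36 (SE 0.10, adjusted p = 0.00434), a second Wars probe gave -0.33 (adjusted p = 0.00717), and median centring ended the call (adjusted p = 0.127).

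**Figure D3:**
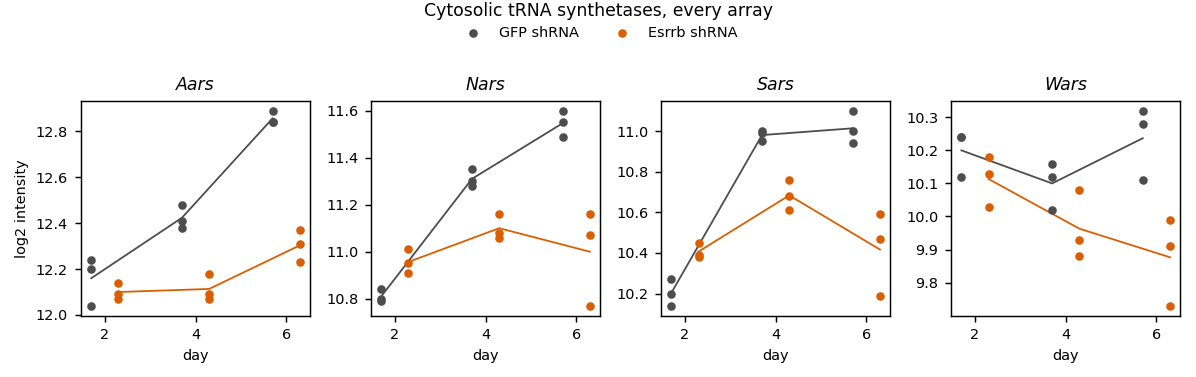
Log2 intensity (y axis, own range per panel) of Aars, Nars, Sars and Wars on every array at day 2, 4 and 6 (x axis), grey for GFP shRNA and orange for Esrrb shRNA, with lines through the means of 3 arrays. In Nars and Sars the orange points lie above the grey ones at day 2 and below them at days 4 and 6.

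The remaining called synthetases had higher adjusted p-values. At day 6 cysteinyl-tRNA synthetase Cars was at -0.46 (adjusted p = 0.0443), Iars for isoleucine at -0.34 (0.0321), Vars for valine at -0.32 (0.0478) and Dars for aspartate at -0.31 (0.0221). Each of these 4 calls was lost under median centring and under 3 or more single arrays left out. A second Cars probe gave -0.44 (adjusted p = 0.026), whereas a second Vars probe gave -0.01 (0.972), and the mean over both Iars probes turned to 0.10 (0.524). With the replicate number as a block, Cars (adjusted p = 0.0279) and Tars (0.035) were called lower at day 4. Histidyl-tRNA synthetase Hars was the only synthetase called higher, at 0.49 on day 6 (adjusted p = 0.0145). That call rested on control replicate 2, without which the adjusted p was 0.129, and on knockdown replicate 3 (0.0973). Its probe read low in control cells at day 6, at 5.53, 4.83 and 5.34, and was detected on only 2 of these 3 arrays. Gars, Kars, Lars, Mars1, Qars, Rars, Tars and Yars passed the test on no day, with day 6 differences of -0.22 (Gars and Kars) to 0.18 (Yars). A second Kars probe was lower at day 6 (-0.48, adjusted p = 0.0141).

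Each arm was then compared with its own day 2, to show which arm moved. In control cells 15 members rose and 9 fell from day 2 to day 6 (64.9%, against 49.1% of all genes, 25.9% rising and 23.2% falling). In knockdown cells 5 rose and 6 fell (29.7%, against 37.1% of all genes, 19.5% rising and 17.6% falling). With median centring the split of all genes moved from 3765 rising and 3364 falling to 4180 and 2250 in control cells, and from 2831 and 2560 to 3385 and 1456 in knockdown cells. Slc1a4 was the member that rose most in both arms, by 2.17 (SE 0.13, adjusted p = 8.66e-11) in control and 1.29 (SE 0.13, adjusted p = 1.72e-07) in knockdown cells. Slc1a5 rose by 1.44 in control cells (SE 0.11, adjusted p = 1.04e-09) and stood at -0.01 in knockdown cells (adjusted p = 0.94). Slc7a4 rose by 1.10 (adjusted p = 9.78e-08) and 0.65 (adjusted p = 0.000102), Slc43a1 by 0.68 and 0.59, and Slc7a5 by 0.46 and 0.39. Of the transporters that fell in control cells, Slc7a7 changed by -1.22 (SE 0.10, adjusted p = 7.44e-09) and in knockdown cells by -0.37 (adjusted p = 0.008), while Slc38a5 changed by -0.81 (adjusted p = 7.15e-07) and -1.17 (adjusted p = 7.7e-09). Slc1a1 rose in control cells (0.37, adjusted p = 0.00983) and fell in knockdown cells (-0.34, adjusted p = 0.0244). Its rise was lost without control replicate 1 of day 6 (adjusted p = 0.0522). Its fall was lost with median centring (0.243), without background correction (0.0611) and without knockdown replicate 1 of day 2 (0.169) or 2 of day 6 (0.122). Median centring also ended the knockdown calls of Slc7a7 (0.0889) and Slc7a5 (0.0509).

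Most synthetases that passed the test over days rose in control cells. Sars rose by 0.81 (SE 0.10, adjusted p = 8.88e-07), Nars by 0.74 (adjusted p = 1.76e-06) and Aars by 0.69 (adjusted p = 8.29e-07), followed by Cars (0.52), Iars (0.47), Gars (0.40) and Dars (0.36). In knockdown cells the same 7 genes had changes of 0.01, 0.04, 0.20, 0.16, 0.14, 0.11 and 0.06, none of which passed the test. The Aars rise there did pass without background correction (adjusted p = 0.028), without a filter (0.0276) and with the mean of all probes (0.0433). The difference between the arms itself passed for Sars, Nars and Aars, and did not pass for Cars (adjusted p = 0.329), Iars (0.174), Gars (0.21) and Dars (0.148). The Cars rise in control cells was lost without a filter (adjusted p = 0.0611) and without replicate 1 of day 2 (0.115) or 2 (0.0672) or 3 (0.0679) of day 6. The Iars rise was lost with the mean of both probes (0.0627) and the Gars rise with median centring (0.0789). Kars fell in both arms, at -0.40 in control (adjusted p = 0.00417) and -0.63 in knockdown cells (adjusted p = 0.000103), as did Vars, at -0.37 and -0.54. In control cells the Kars call was lost with the mean of both probes (adjusted p = 0.115). The Vars call there was lost with median centring (0.0962) and without control replicate 1 (0.119) or 3 (0.0547) of day 2. Tars, for threonine, fell in control cells (-0.34, adjusted p = 0.0144). That call was lost with median centring (0.291) and without control replicate 3 of day 2 (0.12) or 1 of day 6 (0.0573). Yars, for tyrosine, rose in knockdown cells (0.57, adjusted p = 0.00115), although its mean over both probes did not pass the test (0.16, adjusted p = 0.219).

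**Figure D4:**
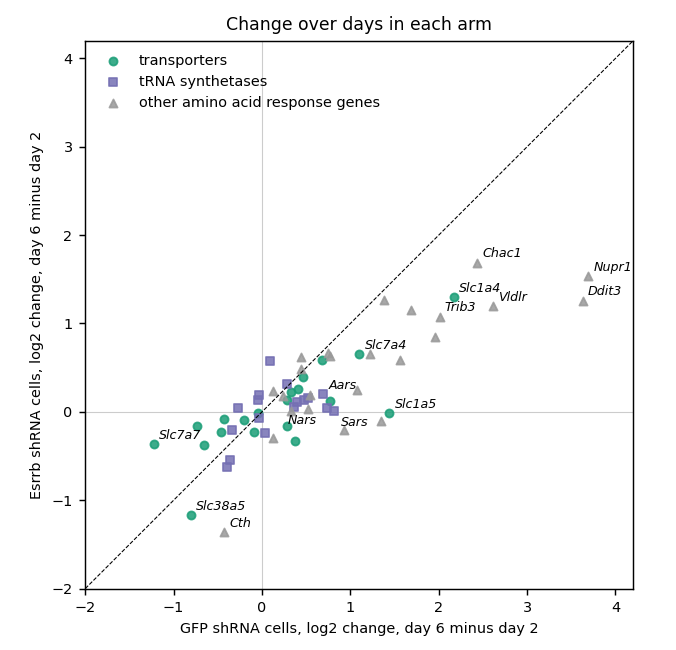
Log2 change from day 2 to day 6 in GFP shRNA cells (x axis) and in Esrrb shRNA cells (y axis), with circles for transporters, squares for synthetases and triangles for 24 other amino acid response genes. The dashed line marks equal change. Slc1a5 (1.44 against -0.01) and Sars (0.81 against 0.01) lie on the horizontal zero line, Slc1a4 (2.17 against 1.29) lies below the dashed line, and Slc38a5 (-0.81 against -1.17) lies near it.

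The difference between the 2 time courses is the same quantity as the difference of the knockdown effect between day 6 and day 2, and it was tested directly. It passed for 10 of the 37 members, 2 higher and 8 lower (27%, against 25.2% of all genes, 11.3% higher and 13.9% lower). The members with a more negative effect at day 6 were Slc1a5 (-1.46, SE 0.15, adjusted p = 7.98e-07), Slc1a4 (-0.87, adjusted p = 0.00173), Sars (-0.80, adjusted p = 0.00024), Slc1a1 (-0.71, adjusted p = 0.00277), Nars (-0.70, adjusted p = 0.00062), Slc43a3 (-0.65, adjusted p = 0.00956), Aars (-0.49, adjusted p = 0.00399) and Slc7a4 (-0.45, adjusted p = 0.0434). Slc7a7 (0.86, adjusted p = 0.000227) and Slc7a3 (0.58, adjusted p = 0.0255) went the other way. The Slc7a3 call was lost in 7 of the 12 fits without 1 array (adjusted p 0.0506 to 0.0721). Slc38a2 had no such difference that passed the test (-0.14, SE 0.14, adjusted p = 0.515), and was higher in knockdown cells on each day. From day 2 to day 4, 3 members passed (8.11%, against 4.82% of all genes), and from day 4 to day 6, 6 members (16.2%, against 14.3%). Slc38a5 was in both of these, with -1.37 (SE 0.13, adjusted p = 6.28e-06) and then 1.01 (SE 0.13, adjusted p = 4.54e-05).

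The wider amino acid response was followed on 28 genes known as targets or parts of the GCN2 and ATF4 pathway that are not members, of which 24 were tested. In control cells 20 of the 24 rose and 1 fell from day 2 to day 6 (87.5%, against 49.1% of all genes), with a median of 1.00 log2 units against 0.00 for all genes. In knockdown cells 14 rose and 2 fell (66.7%, against 37.1% of all genes), with a median of 0.61. Between the arms, 7 were higher and 3 lower in knockdown cells at day 2 (median 0.13), 4 higher and 9 lower at day 4 (median -0.22), and 1 higher and 16 lower at day 6 (median -0.50). That is 41.7%, 54.2% and 70.8% called, against 12.1%, 23.4% and 41% of all genes. The difference of the effect between day 6 and day 2 passed the test in 14, all of them lower (58.3%, against 25.2% of all genes, 13.9% lower). Over all alternatives tried, including each array left out, the day 6 count of lower genes ran from 12 to 16 and the day 2 count of higher genes from 4 to 8, with 4 of them without control replicate 2 of that day. Over the same alternatives the day 2 count of lower genes ran from 0 to 3. The day 4 counts ran from 1 to 4 for higher and from 6 to 11 for lower genes. Atf4 itself had -0.15, -0.22 and 0.02 and passed the test on no day.

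Ddit3, the stress transcription factor CHOP, read 6.75, 6.85 and 6.64 in control and 7.26, 7.27 and 7.23 in knockdown cells at day 2. At day 6 it read 10.35, 10.54 and 10.23 against 8.42, 8.47 and 8.64, so the order of the arms turned while both arms rose. Its log2 fold change went from 0.51 (SE 0.11, adjusted p = 0.00253) through -1.45 (adjusted p = 2.39e-09) to -1.87 (SE 0.11, adjusted p = 2.65e-11). Nupr1, a stress-induced chromatin protein, went from 0.56 (adjusted p = 0.000411) through -1.08 (4.45e-08) to -1.60 (6.27e-11). Pycr1, an enzyme of proline synthesis, went from 0.34 (adjusted p = 0.0115) to -1.10 at day 6 (3.25e-09), and rose over days in control cells only by the test (1.34 against -0.10). Trib3, a pseudokinase that ATF4 induces, was at -0.02 (adjusted p = 0.929), -0.67 (8.7e-06) and -0.95 (4.19e-08).

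**Figure D5:**
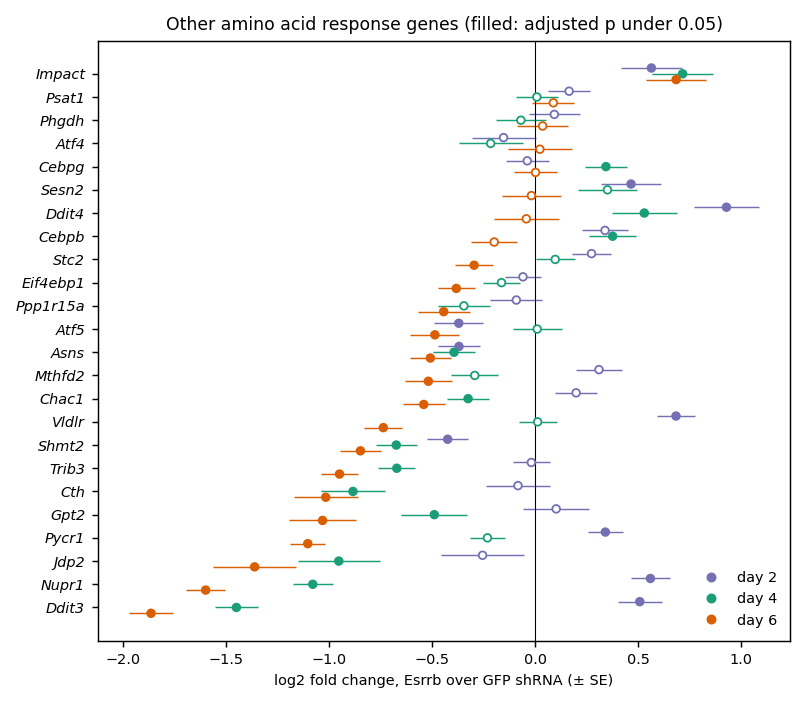
Log2 fold change in Esrrb shRNA over GFP shRNA cells (x axis) of the 24 amino acid response genes that are not members, at day 2, 4 and 6, ordered by the day 6 value. Bars are 1 standard error and filled points have an adjusted p under 0.05. Ddit3 stands at 0.51 on day 2 and at -1.87 on day 6, and Impact alone is filled on the right at day 6.

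Neighbouring groups of genes were counted in the same way, against 12.1%, 23.4% and 41% of all genes called at days 2, 4 and 6. Of 14 mitochondrial tRNA synthetases tested, 0 passed the limma test at day 2 (1 had an unadjusted p under 0.05), 1 was higher and 1 lower at day 4, and 1 was higher and 5 were lower at day 6 (42.9% called), with Vars2 at -0.42 (adjusted p = 0.0013) and Rars2 at -0.43 (0.00209), and Wars2 higher at day 4 (0.76, 0.000459) and day 6 (0.47, 0.0121). Of 5 related genes of the cytosolic system, Aimp2, a scaffold of the multi-synthetase complex, was higher at day 6 (0.43, adjusted p = 0.00223) and Aimp1, Farsa and Farsb passed on no day. Of 12 other amino acid and related carriers, 1 was higher and 2 lower at day 2, 1 and 3 at day 4, and 2 and 1 at day 6 (25%, 33.3% and 25% called). The creatine transporter Slc6a8 was lower throughout (-0.80, -1.12 and -1.15, adjusted p 7.85e-06 to 1.09e-08). Slc25a12, a mitochondrial aspartate and glutamate carrier, was lower at day 4 (-0.77, adjusted p = 9.14e-07), and its relative Slc25a13 was lower at day 2 (-0.57, 0.0235) and day 4 (-0.76, 0.00151). The neutral amino acid transporter Slc6a15 was higher at day 6 (0.92, adjusted p = 2.43e-05).

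Of 15 enzymes of amino acid metabolism, 4, 5 and 6 were lower at days 2, 4 and 6, and 4 were higher at day 6 (26.7%, 33.3% and 66.7% called, against 12.1%, 23.4% and 41% of all genes). Bcat1, the cytosolic branched-chain aminotransferase, was lower on each day (-0.84, -1.23 and -1.22, adjusted p 1.24e-05 to 1.38e-08). Got1, the cytosolic aspartate aminotransferase, was lower on each day too (-0.50, -0.75 and -0.68), as was Gcat of threonine breakdown (-0.38, -0.56 and -0.76), and the glutaminase Gls2 was lower at day 6 (-0.84, adjusted p = 0.000124). Of 17 genes of amino acid sensing by TORC1, 2 were higher at day 2, 2 higher and 1 lower at day 4, and 5 higher and 4 lower at day 6 (11.8%, 17.6% and 52.9% called). Among these 17 is Slc38a9 of the SLC38 family, which is not a member because its probe carries another target name. It read 4.69, 5.39 and 5.49 in control and 6.09, 6.09 and 6.03 in knockdown cells at day 2. At day 6 it read 7.16, 6.83 and 7.13 against 6.59, 6.40 and 6.65. The Rag GTPases Rragb (0.97, adjusted p = 8.25e-06) and Rragd (0.71, 0.000153) were higher at day 6, while Nprl2 of the GATOR1 complex (-0.63, 4.23e-05) and the sestrin Sesn1 (-0.50, 0.000646) were lower.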

How the data were processed

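Biotin-labelled RNA from 18 samples was measured on Illumina MouseWG-6 BeadChips of version 1.1. The deposited intensity of a probe is, per the file headers, a mean over its beads from BeadStudio 3.2.6, not normalized and without background subtraction. The deposited detection score rises with signal from 0 to 1, and its complement was taken as the detection p. The deposited bead number (unit: other) had a median of 37. A second table by the authors was not used here because its identifiers could not be matched. Genes were named by target name, updated to RefSeq symbols of assembly GRCm38.p6 where unique, and 477 control or unnamed probes were left out.

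In R 4.3.3 with limma 3.58.1, neqc applied normexp background correction with an offset of 16, quantile normalization and log2. The 19456 probes detected (p under 0.05) throughout some group of 3 arrays were kept, and the brightest stood for its gene. A linear model of 6 groups over 18 arrays (lmFit, eBayes) gave each contrast, with Benjamini-Hochberg adjustment over 14529 genes, a threshold of 0.05 and two-sided tests. Rose, fell, higher and lower refer to differences past that threshold, and errors are standard errors of that fit. In 10 draws of simulated data for the day 6 contrast (14529 genes), 44 to 67 of 100 genes changed by 0.5 and 93 to 99 of 100 changed by 1 on the log2 scale were recovered, with 3 to 14 false calls. Only these genes were changed in a draw, whereas 41% of all genes were called in the real contrast. Noise was also drawn independently for each array, so these rates need not hold for the real data. The number of arrays limits the precision.

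Members given on every array were those called on at least 1 day at 0.5 log2 units or more, up to 14 transporters and 8 synthetases by size, or, where fewer than 4 of a class qualified, the 4 with the lowest adjusted p; of each other list up to 4 genes with the lowest adjusted p were named. The members and lists were chosen with earlier results of these data known. Atf4, Impact and Slc38a9 were named after their values were seen. A gene that the rule names is not reported here. Each replicate number is a BeadChip, per the file headers, with each group once on each of 3 BeadChips, and samples of the same number deviated together in 33 of 45 pairs at r over 0.1 (mean 0.139), against 3 of 90 for different numbers. Each group kept a single position across BeadChips, and the 2 cannot be told apart. Alternatives changed the normalization, background correction, filter, probe choice, threshold, arrays fitted and the replicate block.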

Additional observations from a re-analysis of the deposited data

Results flagged for a closer look

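Among the 13 members given on every array, the knockdown effect of 10 differed between days by a direct test of that difference in the limma fit, each relative to the control arrays of the same day. These 13 were picked by their knockdown effects on the same arrays, so the count of 10 does not describe the members as a whole. Of all 37 members, 8.11%, 16.2% and 27% passed from day 2 to 4, day 4 to 6 and day 2 to 6. The shares of all genes were 4.82%, 14.3% and 25.2%. Between day 2 and day 4 the effect became more negative in Slc38a5 (-1.37 log2 units, adjusted p = 6.28e-06), Slc1a5 (-0.70, adjusted p = 0.00838) and Sars (-0.50, adjusted p = 0.0404). Between day 4 and day 6 it became more positive in Slc7a7 (1.23, adjusted p = 1.24e-05), Slc38a5 (1.01, adjusted p = 4.54e-05) and Slc1a3 (0.48, adjusted p = 0.0319), and more negative in Slc1a5 (-0.76, adjusted p = 0.00181) and Slc7a4 (-0.56, adjusted p = 0.0196).

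Between day 2 and day 6 the effect became more negative in Slc1a5 (-1.46, adjusted p = 7.98e-07), Slc1a4 (-0.87, adjusted p = 0.00173), Sars (-0.80, adjusted p = 0.00024), Slc1a1 (-0.71, adjusted p = 0.00277), Nars (-0.70, adjusted p = 0.00062), Aars (-0.49, adjusted p = 0.00399) and Slc7a4 (-0.45, adjusted p = 0.0434). It became more positive in Slc7a7 (0.86, adjusted p = 0.000227). Of the other members, Slc43a3 became more negative from day 2 to day 6 (-0.65, adjusted p = 0.00956) and from day 4 to day 6 (-0.70, adjusted p = 0.0101), and Slc7a3 more positive from day 2 to day 6 (0.58, adjusted p = 0.0255). The Slc7a4 value lost its call in 7 of the 12 fits that left out 1 array, with adjusted p of up to 0.116, and Aars lost its call under median centring (adjusted p = 0.067). The 3 spans share arrays, so their values are given side by side only.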

How the results depend on the processing

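Over 3222 values of single members under an alternative, 166 lost a call, 61 gained one and 2 that were called turned in sign. Those 2 were Iars at day 6 with the mean of all probes (0.10) and Slc38a4 at day 6 by its second probe (-0.24). Sign changes of values that were not called are left out of that count. Within each BeadChip, all 6, 9 and 20 members called at days 2, 4 and 6 kept their direction. These differences use the same arrays that gave the calls, so this agreement adds no separate support.

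Median centring in place of quantile normalization moved the median of all genes at day 4 to 0.10. It gave 0 members lower at day 2 (in place of 2), 6 higher (2) and 3 lower (7) at day 4, 7 lower (14) at day 6, 5 falling in control cells (9) and 3 falling in knockdown cells (6). Without a filter on detection, 1 member was lower at day 2, and 1 was higher in the difference of effects between day 6 and day 2 (2). At a threshold of 0.01, 0 were lower at day 2, 1 higher and 4 lower at day 4, 3 higher (6) and 7 lower at day 6, and 1 higher in that difference. With only the arrays of day 2, 0 were lower. At a threshold of 0.01, calls over all genes went from 1765 to 954 at day 2, from 3398 to 2150 at day 4 and from 3668 to 2115 for the difference between day 6 and day 2.

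Leaving out each array in turn gave 0 to 2 lower members at day 2, 1 to 3 higher and 4 to 6 lower at day 4, 3 to 6 higher and 7 to 13 lower at day 6, and 1 to 2 higher in the difference between day 6 and day 2. The lowest counts at day 6 came without control replicate 2. At day 4, 4 lower members came without control replicate 2 or 3 or knockdown replicate 2, and 1 higher member without control replicate 3 or any knockdown replicate. At day 2, 0 lower members came without knockdown replicate 2 or 3 and 1 without any control replicate. In the difference between day 6 and day 2, 1 higher member came without control replicate 1 of day 2 or control replicate 2 or 3 of day 6. The replicate block gave 4 higher members at day 4 in place of 2, moved no other count by over 1.5 times and ended no call. Calls that held under all of these, the second probe of a gene set aside, were 3 of 6 at day 2 (Slc1a3, Slc1a4, Slc38a2), 4 of 9 at day 4 (Slc1a1, Slc1a5, Slc38a2, Slc38a5) and 9 of 20 at day 6 (Aars, Nars, Sars, Slc1a1, Slc1a3, Slc1a5, Slc38a2, Slc7a4, Slc7a7). The cause of these changes was not tested. The alternatives for the amino acid response genes were chosen after seeing the data.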
